A study of Mus musculus with 8 samples.

Results

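Zp1, Zp2, Zp3, Gdf9, Bmp15 and Oosp1 are genes that the mouse oocyte transcribes for its coat and for proteins it sends out to the follicle. Their rows were taken by symbol from an expression table of granulosa cells, which surround the oocyte in the mouse ovary, and all 6 were found among 23235 genes. The table covered 4 groups of 2 libraries each. They were granulosa cells of CNOT6/6L knockout (KO) mice 44 h after PMSG, of wild-type (WT) mice 44 h after PMSG, of KO mice without treatment (0 h) and of WT mice without treatment (0 h). All animals were female C57BL/6. PMSG is a gonadotropin with FSH-like activity that drives antral follicle growth, and its dose and the age of the mice were not given in the sources used here. CNOT6 and CNOT6L are the deadenylase subunits that give the CCR4-NOT complex part of its poly(A)-shortening activity. The labels name no Cre driver or deleted exon, so they leave unsaid whether the oocyte carried the deletion too. Nothing in the labels says that replicates were separate animals or pools, and p-values therefore measure the spread between these libraries only, which may be technical.

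The zona pellucida is the glycoprotein coat that growing oocytes secrete, that sperm bind and that hardens after fertilization. In mice it is built from ZP1, ZP2 and ZP3, where ZP2 and ZP3 form filaments that ZP1 cross-links. GDF9 and BMP15 are TGF-beta family ligands made by the oocyte. They act on neighbouring granulosa and cumulus cells through BMP and TGF-beta receptors and SMAD proteins. Mice without Gdf9 do not grow follicles past the primary stage, whereas female mice without Bmp15 are subfertile. Oosp1 encodes oocyte-secreted protein 1. In the mouse ovary these mRNAs are used as markers of the oocyte.

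Of the targeted genes, Cnot6 was 26.7 and 17.4 FPKM in KO and 26.0 and 26.9 FPKM in WT at 44 h, while at 0 h the values were 11.7 and 12.0 FPKM in KO against 29.1 and 18.4 FPKM in WT, so the library labelled KO replicate 1 at 44 h lay within the WT range. Cnot6l was 2.01 and 1.61 FPKM in KO and 4.20 and 2.63 FPKM in WT at 44 h. At 0 h the values were 4.69 and 1.97 FPKM in KO and 6.11 and 7.07 FPKM in WT. Averaged over times, the KO minus WT difference was -0.60 for Cnot6 and -0.76 for Cnot6l in log2(FPKM + 1). Limma called neither (adjusted p = 0.196 each), with 0.11% of all genes called. The library labelled KO replicate 1 at 44 h also had 129 FPKM of Cyp11a1, the first enzyme of steroid synthesis. KO replicate 2 had 2508 FPKM and the WT libraries 4451 and 4339 FPKM at 44 h. At 0 h Cyp11a1 was 24.1 and 13.5 FPKM in KO and 78.3 and 29.7 FPKM in WT. Lhcgr, a gonadotropin receptor gene, was 18.8 and 261 FPKM in KO and 299 and 308 FPKM in WT at 44 h. At 0 h it was 2.53 and 1.41 FPKM in KO and 5.33 and 2.28 FPKM in WT. Cyp11a1 and Lhcgr were named for these values. Between the 2 KO libraries at 44 h, 1527 of 13688 genes were at least 2-fold apart, and between the pairs of the other groups 317 to 432 were. Granulosa cells were present throughout, with Inha, the inhibin alpha subunit, between 8434 and 23238 FPKM. Markers of the oviduct and ciliated cells summed to 17.9 to 373 FPKM in KO and 22.8 to 392 FPKM in WT at 44 h. At 0 h the sums were 22.9 to 80.5 FPKM in KO and 21.8 to 26.5 FPKM in WT. Ovgp1, the oviduct glycoprotein, made up most of both high 44 h sums (279 FPKM in KO replicate 2, 366 FPKM in WT replicate 1). The ciliated-cell markers Tppp3 and Rsph1 were 53.5 and 15.95 FPKM in KO replicate 2, against 12.1 and 4.62 FPKM in WT replicate 1. Relative depth, read from the steps between low values, ranged from 0.904 to 1.25 of the median library.

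Promoters of 3 of the 6 genes were in the RefSeq table used here, and they are shown as a description only. FIGLA, an oocyte transcription factor, binds E-boxes (CANNTG) in the mouse zona gene promoters, and NOBOX, another one, binds TAATTG or TAATTA. Each window holds the 250 bases before the RefSeq start in build GRCm38.p6, which is not the mm9 build named for the expression table, written 5′ to 3′ on the gene's own strand. Capitals mark E-boxes, either of the NOBOX motifs and the TATA-box letters TATAAA, each searched on both strands, and none of the marked matches overlap. The windows are chr5:135979855-135980104 (plus strand) for Zp3, chr19:11691052-11691301 (minus strand) for Oosp1 and chrX:6320725-6320974 (minus strand) for Bmp15.
Zp3: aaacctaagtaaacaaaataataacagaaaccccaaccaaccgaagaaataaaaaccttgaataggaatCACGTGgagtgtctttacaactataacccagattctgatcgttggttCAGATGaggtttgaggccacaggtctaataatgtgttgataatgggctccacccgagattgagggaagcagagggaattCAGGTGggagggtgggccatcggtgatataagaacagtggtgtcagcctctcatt
Oosp1: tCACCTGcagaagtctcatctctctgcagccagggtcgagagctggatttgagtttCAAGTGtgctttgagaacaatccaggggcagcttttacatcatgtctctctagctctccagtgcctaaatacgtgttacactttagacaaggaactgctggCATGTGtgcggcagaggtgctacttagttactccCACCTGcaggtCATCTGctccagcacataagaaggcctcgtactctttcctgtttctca
Bmp15: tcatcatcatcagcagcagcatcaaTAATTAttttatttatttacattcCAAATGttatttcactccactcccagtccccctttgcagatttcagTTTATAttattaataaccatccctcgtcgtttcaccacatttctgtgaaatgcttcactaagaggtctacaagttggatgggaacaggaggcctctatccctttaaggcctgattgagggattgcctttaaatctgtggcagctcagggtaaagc
The Zp3 window held 3 E-boxes, and the one that starts 181 bases before the start reads CACGTG. The Oosp1 window held 5 E-boxes and the Bmp15 window 1. CANNTG was in 66.2% of 32851 promoter windows of this length and CACGTG in 6.02%. TAATTA was found once, in the Bmp15 window, and in 4.84% of all windows. TATAAA was also found once there, on the opposite strand, and was in 12.4% of all windows. No TAATTG was in the 3 windows, against 7.17% of all. These are matches of letters and not measured sites.

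Zona transcripts were measured in every library, with Zp3 well above the other zona genes. FPKM scale fragments to transcript length, so levels can be set side by side between genes. Zp3 was 396 and 229 FPKM in KO and 158 and 168 FPKM in WT at 44 h, while at 0 h the values were 821 and 803 FPKM in KO and 290.2 and 530.1 FPKM in WT, in replicate order. Its lowest 2 values were the WT libraries at 44 h and its highest 2 the KO libraries at 0 h. Zp1 was 107 and 62.6 FPKM in KO and 45.9 and 51.8 FPKM in WT at 44 h, while at 0 h the values were 264 and 232 FPKM in KO and 85.0 and 164 FPKM in WT. Zp2 was 90.1 and 46.6 FPKM in KO and 39.7 and 34.0 FPKM in WT at 44 h, while at 0 h the values were 209.8 and 186 FPKM in KO and 62.5 and 114 FPKM in WT. The KO and WT libraries of one time did not overlap for any of the 3 zona genes, with KO higher, and 23.9% of the 13688 genes tested were higher without overlap at 44 h and 27.3% at 0 h. Neither did the 44 h and 0 h libraries of one genotype, with 44 h lower, as for 34.1% of all genes in KO and 40.6% in WT.

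Of the secreted factors, Gdf9 was the highest of all 6 genes in each of the 8 libraries. Gdf9 was 561 and 347 FPKM in KO and 228 and 237 FPKM in WT at 44 h, while at 0 h the values were 1200.1 and 1055 FPKM in KO and 452 and 743 FPKM in WT. Among all genes of a library it ranked between place 48, in KO replicate 1 at 0 h, and place 630, in WT replicate 2 at 44 h. Bmp15, the X-linked partner of Gdf9, was 113 and 76.3 FPKM in KO and 52.6 and 33.1 FPKM in WT at 44 h, while at 0 h the values were 234 and 213 FPKM in KO and 86.1 and 155 FPKM in WT. Oosp1 was 111 and 59.8 FPKM in KO and 43.6 and 31.4 FPKM in WT at 44 h, while at 0 h the values were 192 and 126 FPKM in KO and 64.6 and 119 FPKM in WT. The groups again did not overlap, although for Oosp1 the lower KO library at 0 h lay only just above the higher WT library.

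**Figure D1:**
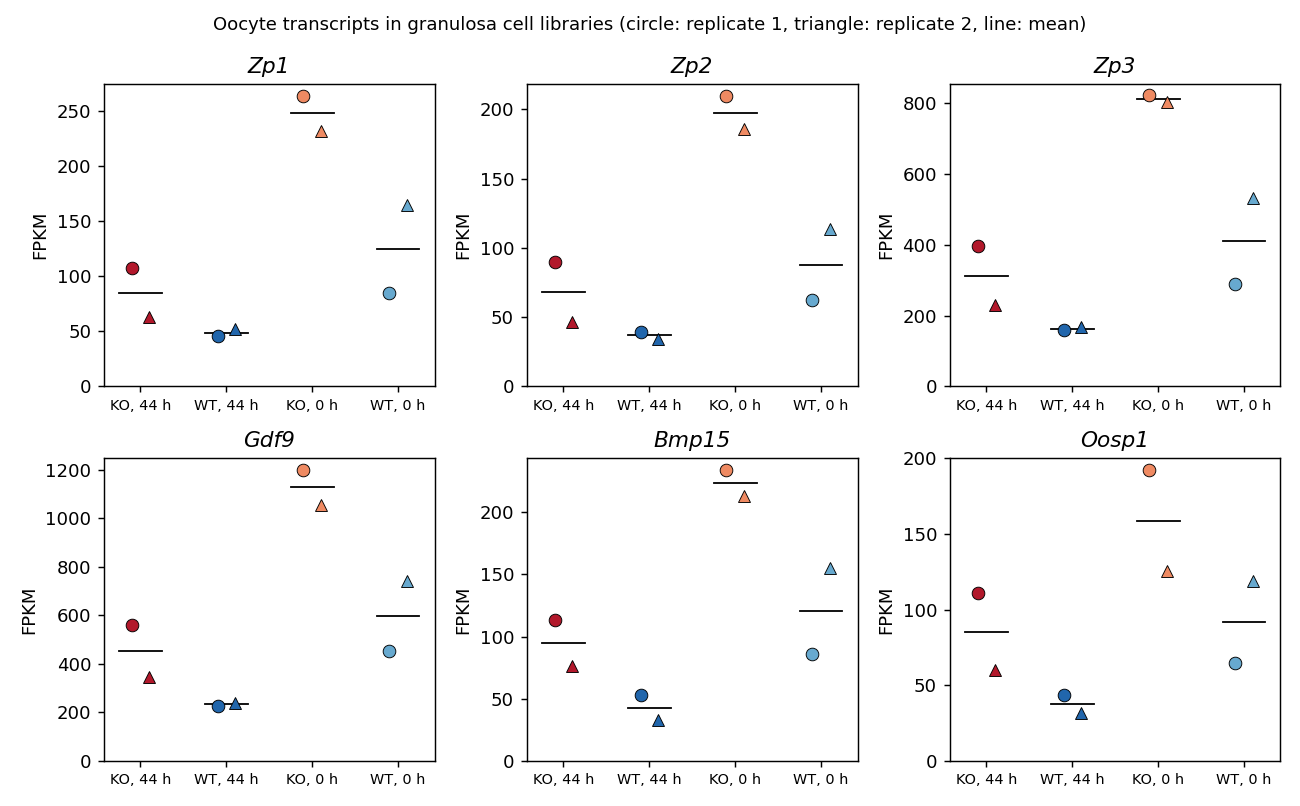
FPKM of each of the 6 oocyte genes (vertical axes, linear and starting at 0) in the 4 groups (horizontal axes), with a circle for replicate 1, a triangle for replicate 2 and a line at the mean of the 2 libraries. In each panel the KO libraries at 0 h are the highest and the WT libraries at 44 h the lowest; Gdf9 spans 228 to 1200.1 FPKM.

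By group mean the order was the same for all 6 genes, with KO at 0 h first, then WT at 0 h, KO at 44 h and WT at 44 h. The neighbours WT at 0 h and KO at 44 h overlapped for each gene, so their order is not larger than the spread between libraries. Gdf9 averaged 454 ± 151 FPKM in KO and 233 ± 6.24 FPKM in WT at 44 h, and 1128 ± 103 FPKM in KO and 598 ± 206 FPKM in WT at 0 h (SD, n = 2 each). The higher library of a pair was 1.48 to 1.93 times the lower one in KO and 1.04 to 1.59 times in WT at 44 h. At 0 h it was 1.02 to 1.53 times in KO and 1.64 to 1.93 times in WT. Summed, the 6 genes took 0.183% and 0.120% of all FPKM in KO and 0.0800% and 0.0742% in WT at 44 h, while at 0 h the shares were 0.432% and 0.383% in KO and 0.146% and 0.266% in WT. FPKM are scaled to the whole library. In bulk libraries such as these, fewer oocytes, less of these mRNAs per oocyte and more RNA from other cells cannot be told apart.

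The comparison of 44 h with 0 h sets libraries after PMSG against untreated ones. No group was left untreated until 44 h, so PMSG, elapsed time and the collection cannot be told apart. Taking the mean of the changes in KO and in WT, all 6 genes fell, and 6 of 6 passed limma at a Benjamini-Hochberg adjusted p under 0.05, where 12.4% of the 13688 genes tested were called lower. Gdf9 fell by 1.33 on the log2(FPKM + 1) scale (SE 0.213, adjusted p = 0.0190). The zona genes changed by -1.42 (Zp1, SE 0.249, adjusted p = 0.0213), -1.38 (Zp2, SE 0.259, adjusted p = 0.0231) and -1.35 (Zp3, SE 0.239, adjusted p = 0.0217) in the same limma fit. Bmp15 fell by 1.35 (SE 0.243, adjusted p = 0.0219) and Oosp1, the least changed, by 1.07 (SE 0.287, adjusted p = 0.0446). Over all genes tested the median of this difference was -0.12, and it was -0.013 after median-of-ratios scaling, under which limma called 5 of 6 (all but Oosp1) and 7.43% of all genes lower. At 44 h all 6 lay below 0 h without overlap in both genotypes, as did 25.4% of all genes. Exact permutation of the time labels within each genotype gave p = 0.0556 (two-sided) for each of the 6, the smallest that 36 arrangements allow. Without KO replicate 1 or KO replicate 2 at 0 h, WT replicate 2 at 0 h, or WT replicate 1 or WT replicate 2 at 44 h, 0 of the 6 passed limma (6 at an unadjusted p under 0.05 each time, where with all libraries 24.9% of all genes were lower at that level). The medians were then -1.33, -1.38, -1.15, -1.35 and -1.34, the smallest adjusted p between 0.0604 and 0.0800, and limma called 26 to 117 genes in all in place of 2396. It called 6 of 6 lacking the library labelled KO replicate 1 at 44 h (17.2% of all genes called lower), 5 of 6 lacking KO replicate 2 at 44 h (11.4%) and 6 of 6 lacking WT replicate 1 at 0 h (7.29%).

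Within either genotype alone the test was not passed. In KO the 6 genes were 0.92 (Oosp1) to 1.59 (Zp2) lower at 44 h than at 0 h on the log2 scale, and the 44 h mean was 0.343 to 0.537 times the 0 h mean. In WT they were 1.18 (Zp2) to 1.45 (Bmp15) lower, and the 44 h mean was 0.356 to 0.418 times the 0 h mean. Limma called 0 of 6 in KO (adjusted p = 0.110 to 0.2504; 5 of 6 at an unadjusted p under 0.05, where 15.4% of all genes were lower) and 0 of 6 in WT (adjusted p = 0.102 to 0.141; 6 of 6 at an unadjusted p under 0.05, where 15.8% of all genes were lower). Of all genes, 0.139% were called in KO and 0.0804% in WT. A test within 1 genotype has 2 libraries against 2, where the smallest two-sided exact permutation p is 0.333. In KO the 2 libraries at 44 h differed in their distance from 0 h, with a median of -1.02 in the library labelled replicate 1 and -1.76 in replicate 2 against the 0 h mean. In WT, leaving out WT replicate 2 at 0 h brought the median to -0.81, in place of -1.26, and the count at an unadjusted p under 0.05 to 3 of 6. With the library labelled KO replicate 1 left out, limma called 4 of 6 in KO (all but Bmp15 and Oosp1) and 5 of 6 in WT (all but Oosp1), where 4.48% and 4.93% of all genes were called lower. The KO group at 44 h then holds 1 library, which the fit assumes to vary like the libraries of the other groups, and the same holds for each group with a library left out. Without KO replicate 2 at 44 h it called 0 of 6 in KO and 5 of 6 in WT, where 4.99% of all genes were called lower. A fit of the WT libraries alone called Gdf9, 1 of 6, where 2.91% of all genes were called lower.

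The comparison of KO with WT asks whether these oocyte transcripts differ in preparations from mice labelled as knockout for the 2 deadenylases. All 6 genes were higher in KO at both times, by an amount close to 2-fold, and none passed the test over all genes. At 44 h the KO mean was 1.74 to 2.27 times the WT mean, and at 0 h it was 1.73 to 2.25 times. At 44 h the log2 differences were 0.74 (Zp1) to 1.14 (Bmp15), and limma called 0 of 6 (adjusted p = 0.494 to 0.539; 4 of 6 at an unadjusted p under 0.05, where 6.69% of all genes were higher), with 0.0219% of all genes called. At 0 h the log2 differences were 0.82 (Oosp1) to 1.22 (Zp2), and limma called 0 of 6 (adjusted p = 0.408 to 0.589; 5 of 6 at an unadjusted p under 0.05, where 7.55% of all genes were higher), with 0.0365% of all genes called. Each gene was higher without overlap at both times, as were 13.5% of all genes. Both patterns together, KO above WT at each time and 44 h below 0 h in each genotype with no overlap, were shown by all 6 genes and by 9.12% of all genes.

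Averaged over both times, the KO minus WT difference ranged from 0.90 (Zp1, 95% interval 0.31 to 1.49) to 1.04 (Bmp15, 95% interval 0.47 to 1.61) on the log2 scale. Limma called 0 of 6 (adjusted p = 0.127 to 0.177), while 0.11% of all genes were called and all 6 members had an unadjusted p under 0.05, against 12.6% of all genes that were higher at that level. Exact permutation of the genotype labels within each time gave p = 0.0556 (two-sided) for each, again the smallest possible. The difference at 44 h rests on the 2 KO libraries to unequal degrees, since the library labelled KO replicate 1 lay a median of 1.28 above the WT mean and KO replicate 2 a median of 0.53. Without KO replicate 2 at 44 h, the averaged difference was 1.09 to 1.24 and limma called 6 of 6, where 6.07% of all genes were called higher. With the library labelled KO replicate 1 left out it was 0.71 to 0.90 and limma called 0 of 6 (smallest adjusted p = 0.144). At 44 h alone, the count at an unadjusted p under 0.05 was 0 of 6 without the library labelled KO replicate 1 or without WT replicate 2, in place of 4. At 0 h alone it was 0 of 6 without KO replicate 1 or without WT replicate 1, in place of 5. At 0 h, leaving out WT replicate 1 brought the median difference to 0.59 and leaving out WT replicate 2 to 1.42, against 1.00 with both.

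The change from 0 h to 44 h after PMSG was not shown to differ between the genotypes. The interaction, the KO change minus the WT change, ran from -0.41 for Zp2 (95% interval -1.63 to 0.81) to 0.30 for Oosp1 (95% interval -1.05 to 1.65), and limma called 0 of 6 (adjusted p = 0.99990 each; 0 at an unadjusted p under 0.05, where 1.82% of all genes were), with 0.0438% of all genes called. For each of the 6 genes the interval includes an interaction of more than 2-fold in at least 1 direction. For Gdf9 the interaction was -0.04 (95% interval -1.04 to 0.97).

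**Figure D2:**
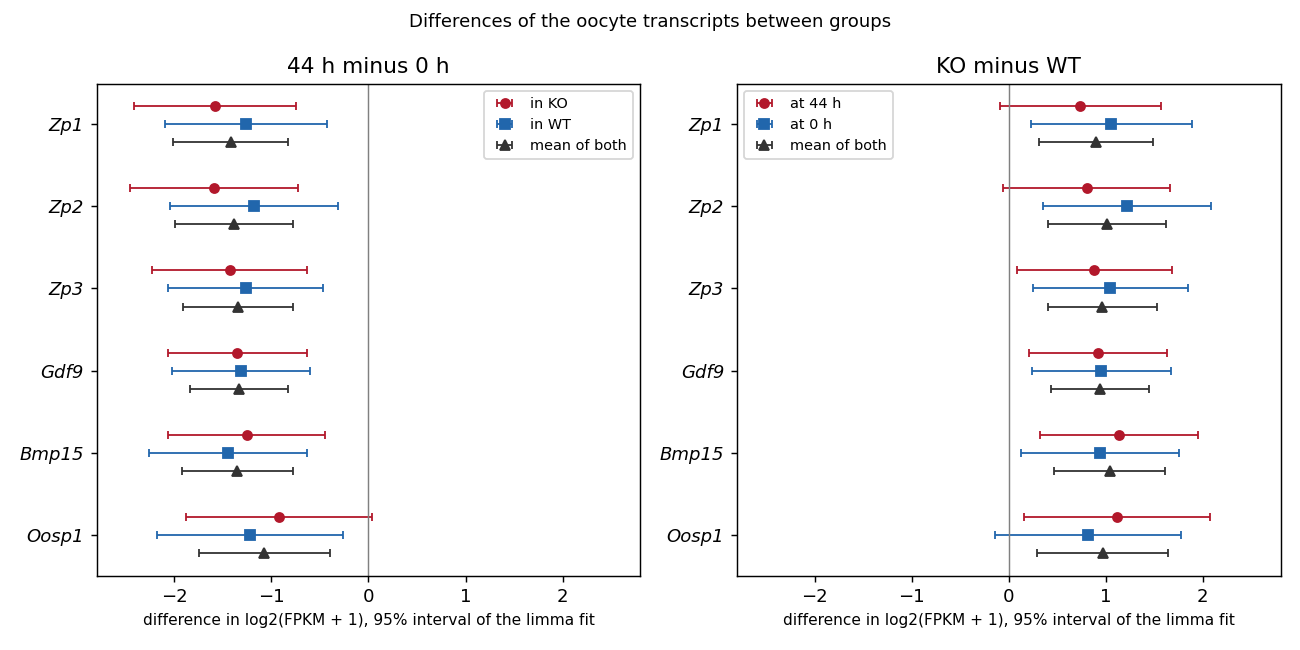
Differences in log2(FPKM + 1) with their 95% intervals from the limma fit (horizontal axes) for the 6 genes (vertical axes), as 44 h minus 0 h on the left and KO minus WT on the right. Every point lies left of 0 in the first panel and right of 0 in the second, and the averaged differences range from -1.42 to -1.07 and from 0.90 to 1.04.

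Within the sum of the 6 genes, the shares of Gdf9 and Zp3 differed little between libraries for their size, and those of Bmp15 and Oosp1 differed more. In percentage points the ranges of Gdf9, Zp3, Bmp15 and Oosp1 were similar, and those of Zp1 and Zp2 were narrower. Gdf9 made up 40.2% to 43.5% of the summed FPKM of the 6 genes and Zp3 27.8% to 30.7%. Zp1 made up 7.63% to 9.33%, Bmp15 5.97% to 9.29%, Zp2 5.68% to 7.19% and Oosp1 4.80% to 8.03%. Gdf9 was first and Zp3 second in every library, whereas the places of the other 4 genes changed from library to library. The ratio of Gdf9 to Bmp15, the 2 partner ligands, was 4.95 and 4.54 in KO and 4.34 and 7.15 in WT at 44 h, while at 0 h the values were 5.14 and 4.95 in KO and 5.25 and 4.80 in WT. Thus the widest gap was between the WT libraries at 44 h, and KO and WT overlapped at both times. The ratio of Zp3 to Zp1 stayed between 3.11 and 3.69 and that of Zp3 to Zp2 between 3.91 and 4.94. Over the 8 libraries the 15 pairs of genes had Pearson correlations of 0.942 (Zp1 with Oosp1) to 0.997 (Zp3 with Gdf9) in log2(FPKM + 1), as a description of points that share their library.

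**Figure D3:**
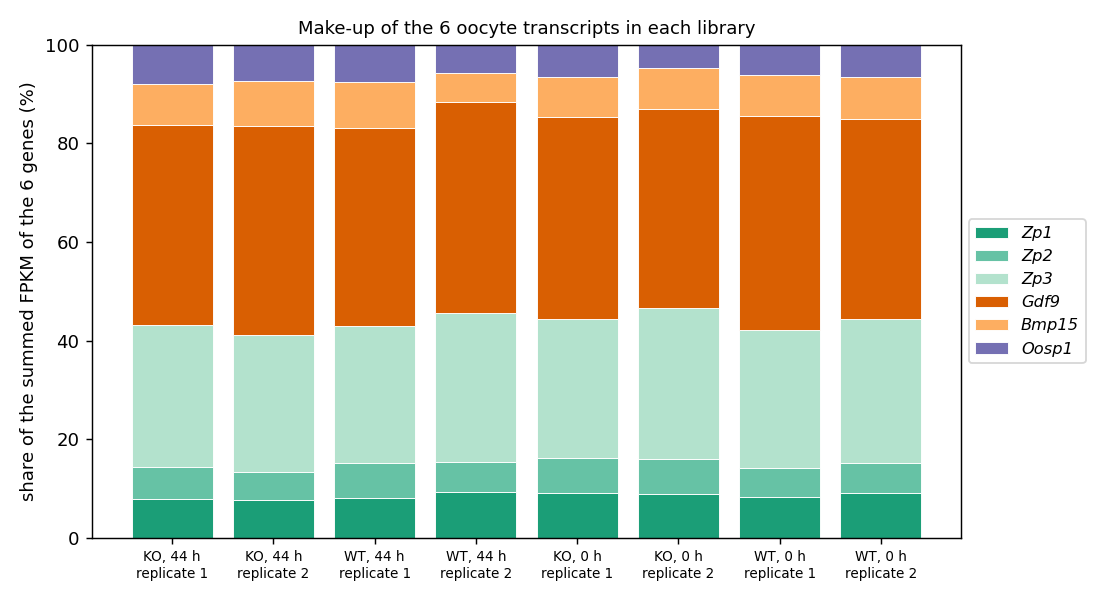
Share of each of the 6 genes in their summed FPKM (vertical axis, %) in each of the 8 libraries (horizontal axis). Gdf9 lies between 40.2% and 43.5%, Zp3 between 27.8% and 30.7%, and Oosp1 between 4.80% and 8.03%.

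The 6 genes moved much as other oocyte transcripts did. For 38 other oocyte genes (egg coat and surface, maternal-effect, and transcription factor and RNA-binding genes, leaving out Cd9, which other cells also make) the mean log2(FPKM + 1) was 5.55 and 4.95 in KO and 4.44 and 4.37 in WT at 44 h, while at 0 h the values were 6.55 and 6.31 in KO and 5.22 and 5.81 in WT. Set against that mean within a library, Gdf9 varied with an SD of 0.119 over the 8 libraries, where its own level varied with an SD of 0.912 (log2). For the other 5 genes the SD was 0.164 (Zp3) to 0.232 (Bmp15), where their levels had SDs of 0.868 to 0.986. Relative to the other oocyte genes, the KO minus WT difference was -0.10 to 0.30 at 44 h and -0.10 to 0.31 at 0 h. The 44 h minus 0 h difference was -0.41 to 0.26 in KO and -0.34 to -0.07 in WT. In KO it was -0.40 for Zp1, -0.41 for Zp2, -0.25 for Zp3 and -0.17 for Gdf9, against -0.07 for Bmp15 and 0.26 for Oosp1. Between 44 h and 0 h, relative values did not overlap for 4 of 6 genes in KO (Zp1, Zp2, Zp3 and Gdf9, 44 h lower). In WT this held for 1 of 6 (Gdf9, 44 h lower). Between KO and WT it held for 1 of 6 at 0 h (Zp2, KO higher) and 0 of 6 at 44 h. With 2 libraries against 2, random labels separate the groups in either direction with a probability of 0.333. These counts therefore single out no gene, and the share of all genes without overlap was not computed. The 38 genes include Taf4b, which granulosa cells also make, and some genes of low FPKM, whose changes log2(FPKM + 1) understates. These relative values are a description and were not tested.

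**Figure D4:**
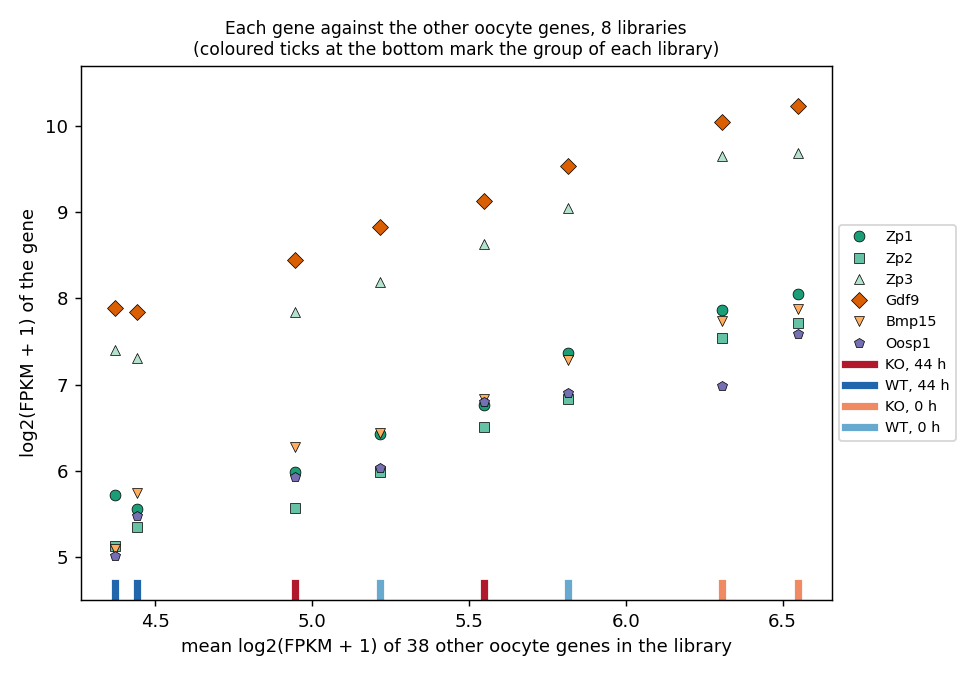
Level of each gene as log2(FPKM + 1) (vertical axis) against the mean log2(FPKM + 1) of 38 other oocyte genes (horizontal axis) in the 8 libraries, with coloured ticks that mark each library's group. All 6 genes climb with the other oocyte genes, whose mean is highest in the KO libraries at 0 h (6.55 and 6.31) and lowest in the WT libraries at 44 h (4.44 and 4.37).

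Among the genes of those 3 lists, with Cd9 included, limma called 21 of 21 tested maternal-effect genes lower at 44 h in the mean of both genotypes (median -1.22), 10 of 12 transcription factor and RNA-binding genes (median -1.14) and 3 of 6 egg coat and surface genes (median -0.88), where 12.4% of all genes were called lower. For the 6 zona and growth factor genes the median was -1.35. H1foo, the oocyte linker histone, was 1014 and 589 FPKM in KO and 404 and 448 FPKM in WT at 44 h, while at 0 h the values were 1874 and 1745 FPKM in KO and 755 and 1199 FPKM in WT. Astl, the egg protease that cleaves ZP2 after fertilization, fell by 1.44 (SE 0.160, adjusted p = 0.0116), and Nobox by 1.41 (SE 0.223, adjusted p = 0.0186), both in the mean over genotypes by limma. Cd9, an egg surface protein that other cells also make, differed by -0.04 (SE 0.231, adjusted p = 0.924). For KO against WT averaged over times the medians were 0.93, 0.76 and 0.65 in these 3 lists and 0.97 in the 6 genes, with 0 called in any of them (21, 11 and 3 at an unadjusted p under 0.05, where 12.6% of all genes were higher). Over all genes tested the median was 0.033.

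The 10 genes whose levels followed the 6 most closely over the 8 libraries were Zfp828, Oas1e, Riok1, Zfp57, Bpgm, Spire1, Atl1, Aspm, Nlrp14 and Obox1, with Pearson r of 0.995 to 0.999 against the mean log2(FPKM + 1) of the 6. Oas1e was 221 and 131 FPKM in KO and 84.2 and 86.0 FPKM in WT at 44 h, while at 0 h the values were 445 and 399 FPKM in KO and 162 and 279 FPKM in WT. Nlrp14 is a maternal-effect gene and Obox1 an oocyte homeobox gene. Of 8001 genes compared, 474 (5.92%) had r of at least 0.95, as did 32 of the 35 genes of the 3 oocyte lists among them. Taf4b, a TFIID subunit needed in the mouse oocyte that granulosa cells also make, had r of 0.215, Cd9 had 0.257 and Figla 0.924; Taf4b and Figla were named after these values were seen.

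Among receptors and signal carriers for GDF9 and BMP15, a minority was called lower at 44 h, and none was called between genotypes. Of 17 tested genes for receptors, SMADs and processing enzymes, limma called 6 lower and 0 higher at 44 h in the mean of both genotypes (median -0.33), where 12.4% of all genes were called lower and 5.06% higher, and 0 in KO against WT averaged over times (median 0.17, 0 at an unadjusted p under 0.05). Bmpr1b, a type I BMP receptor, was 39.9 and 38.9 FPKM in KO and 34.3 and 15.6 FPKM in WT at 44 h, while at 0 h the values were 58.0 and 59.2 FPKM in KO and 59.2 and 54.0 FPKM in WT. It fell by 0.91 at 44 h (SE 0.225, limma adjusted p = 0.0381), and its groups overlapped between genotypes at 0 h. Smad3, a TGF-beta signal carrier, fell by 0.69 (SE 0.185, limma adjusted p = 0.0445). Bmpr2, the type II receptor of both ligands, fell by 0.68 (SE 0.131, limma adjusted p = 0.0243) and was named after its values were seen. Tgfbr1, the type I receptor for GDF9, differed by 0.03 (SE 0.391, adjusted p = 0.959), and Smad4, the common SMAD, by -0.33 (SE 0.151, adjusted p = 0.163).

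Of 13 tested granulosa and cumulus genes known to respond to GDF9 or BMP15, limma called 3 higher and 1 lower at 44 h in the mean of both genotypes (median 0.51), where 5.06% of all genes were called higher and 12.4% lower, and 0 in KO against WT averaged over times (median -0.23, 0 at an unadjusted p under 0.05). The list was not split by the direction in which each gene responds, so these counts and medians do not measure the action of the ligands. Id2, a BMP target that inhibits helix-loop-helix factors, rose by 1.85 (SE 0.431, limma adjusted p = 0.0335), and Amh, made by granulosa cells of small follicles, fell by 1.92 (SE 0.462, limma adjusted p = 0.0357). Ldha, a glycolytic enzyme, was 561 and 1155 FPKM in KO and 1024 and 1072 FPKM in WT at 44 h, while at 0 h the values were 581 and 646 FPKM in KO and 662 and 701 FPKM in WT, a difference of 0.51 at 44 h (SE 0.223, adjusted p = 0.149). Fgf8, an oocyte growth factor that acts with BMP15 on cumulus cells, fell by 1.26 (SE 0.274, limma adjusted p = 0.0288), and Kit, the oocyte receptor for KIT ligand, by 1.06 (SE 0.223, limma adjusted p = 0.0274). Fgf8 and Kit stood 2 of 5 in a list of co-acting growth factors and receptors, of which limma called 3 lower at 44 h, where 12.4% of all genes were, and 0 between genotypes.

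Granulosa and other markers moved beside these results. The 15 granulosa markers summed to 23850 to 30056 FPKM in KO and 17620 to 20954 FPKM in WT at 44 h, while at 0 h the values were 15179 to 15331 FPKM in KO and 13241 to 15200 FPKM in WT. Inha made up most of each sum, with 23238 and 13862 FPKM in KO and 10434 and 13006 FPKM in WT at 44 h. At 0 h Inha was 10254 and 10433 FPKM in KO and 9428 and 8434 FPKM in WT. Theca and stroma markers summed to 253 to 374 FPKM in KO and 308 to 338 FPKM in WT at 44 h, while at 0 h the values were 112 to 158 FPKM in KO and 119 to 129 FPKM in WT. At 44 h in the mean of both genotypes limma called 7 of the granulosa markers higher and 3 lower, and 2 of 12 theca and stroma markers higher, where 5.06% of all genes were called higher and 12.4% lower. It called 2 of 7 endothelial markers higher, and 0 of 10 immune, 0 of 9 surface epithelium, 0 of 6 oviduct and 0 of 4 erythroid markers. The part of these markers in the fall of the oocyte transcripts was not tested. The 2 WT libraries at 44 h had 366 and 6.05 FPKM of Ovgp1, the oviduct glycoprotein, and their 6 oocyte genes summed to 568 and 555 FPKM. The 2 KO libraries at 44 h had 3.04 and 279 FPKM of Ovgp1, and their 6 oocyte genes summed to 1378 and 821 FPKM. A link between Ovgp1 and the oocyte genes was not tested. Immune markers summed to 464 to 559 FPKM in KO and 276 to 373 FPKM in WT at 44 h, while at 0 h the values were 203 to 1019 FPKM in KO and 243 to 319 FPKM in WT, and their part in the genotype difference was not tested.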

How the data were processed

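RNA of 8 libraries (4 groups of 2) was sequenced as paired-end reads, and both a TruSeq and a TruePrep kit are named in the labels' protocols. The authors deposited FPKM values (fragments per kilobase of transcript, scaled to library size), in 1 table with a column per library, per the file headers. The submitters' processing notes list mm9, TopHat2 2.1.1 and Cufflinks 2.2.1 without saying what each was used for. The annotation is not given in the sources used here. FPKM hold no counts, so read depth per gene is unknown and no count model was run. Libraries deposited here differed from each other (highest correlation 0.966).

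Values were taken as log2(FPKM + 1), which understates changes of low genes, for the 13688 genes that reached 1 FPKM in 2 or more libraries; all 6 members passed. One mean per group was fitted with limma 3.58.1 (R 4.3.3), with trended empirical Bayes and 4 residual degrees of freedom, and p-values were adjusted over all genes within each comparison. The contrasts were KO against WT at each time and averaged, 44 h against 0 h in each genotype and averaged, and the interaction. Exact permutation tests were two-sided. The code was tested on simulated data. Named genes were the 6 members, the targeted genes, the 10 genes most correlated with the members' mean (mean FPKM of at least 5, no predicted, clone or short RNA names) and, of each list, members among the 4 with the highest mean FPKM. Members and lists were chosen with earlier results of these data known. Alternatives covered the pseudocount, the filter, scaling, a replicate block, the libraries in the fit, the empirical Bayes settings and leaving out each library; a block with crossed numbers was added after seeing the data. Promoter sequences are RefSeq's (GRCm38.p6), matched by symbol for 3 of 6 genes.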

Additional observations from a re-analysis of the deposited data

How the results depend on the processing

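With 2 libraries a group, the direction of each member's difference held under every alternative run, except in the interaction. Outside the interaction, only quantile or median-of-ratios scaling could have changed a direction. The groups compared did not overlap, so leaving out a library could not reverse a sign. The remaining settings leave the differences the same or cannot reverse them. In the interaction, 15 of 48 values with a library left out changed sign. The lowest and highest were -0.79 and 0.15 for Zp1, -0.88 and 0.055 for Zp2, -0.60 and 0.27 for Zp3, -0.39 and 0.32 for Gdf9, -0.23 and 0.61 for Bmp15, and -0.14 and 0.74 for Oosp1. Calls moved more than sizes. Leaving out a library gave 0 to 6 called members for 44 h against 0 h averaged over genotypes, 0 to 6 for KO against WT averaged over times, 0 to 5 for 44 h against 0 h in WT and 0 to 4 in KO. A fit of only the WT groups called 1 (Gdf9, adjusted p = 0.0439). KO against WT at either time and the interaction had 0 called members under all alternatives. The cause of the moved calls was not tested. Leaving out a library leaves fewer degrees of freedom and also changes the estimate of spread that all groups share. Leaving out either KO library at 44 h cannot change the median for 44 h against 0 h in WT (-1.26), which comes from the WT libraries alone. Oosp1 lost its averaged 44 h call without a filter on low values (adjusted p = 0.0820), after quantile (0.0504) or median-of-ratios scaling (0.0618) and with a replicate block (0.0683); over all of its alternatives that adjusted p ran from 0.0150 to 0.145. Same-numbered libraries did not deviate together (correlations of -0.113 to -0.0068), so the number is not taken as a pairing; with the replicate block limma called 781 genes in place of 2396 for 44 h against 0 h averaged over genotypes, 5 of the members among them, with 3.86% of all genes called lower. With the KO numbers at 44 h crossed, chosen after seeing the data, it called 2119 genes and 5 members, with 10.5% of all genes called lower. FPKM without counts give no counting error.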
